A study of Canis lupus familiaris with 45 samples.

Results

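Subcutaneous fat of 5 ad libitum fed beagles was compared between week 8 of free feeding and week 0, the baseline before it began. The comparison was between the 10 arrays of these dogs at those weeks. They were chosen by the feeding group and week in the sample labels and paired by the animal number. The fit took in all 45 arrays of the series, and batch and the spread were estimated over them all. The dogs, numbered 2, 5, 6, 7 and 8, were 4-year-old intact females, were randomised to free access to food, and all ate Purina Pro Plan Performance Formula. The control group held 4 beagles of the same sex and age on the same food, given in amounts that kept their baseline body weight, and its 8 arrays at weeks 8 and 0 were used for comparison. Each biopsy was taken after an overnight fast and hybridised to 1 Affymetrix canine array, so the replicates were separate dogs of 1 breed and 1 sex. All values are log2 GCRMA values (a background-corrected, normalised array summary), on which 1 unit is a doubling.

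White adipose tissue stores surplus energy as triglyceride in adipocytes and releases it as fatty acids during fasting. It also secretes hormones, of which leptin reports the size of the fat store to the brain. When fat cells enlarge, the enzymes of lipid synthesis, the receptors that control lipolysis and the surrounding collagen matrix are all known to be adjusted.

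The adipocyte genes ADIPOQ and FABP4 were high on all 10 arrays. ADIPOQ, which encodes adiponectin, lay between 15.58 and 15.96 at week 8 and between 15.52 and 15.71 at week 0. FABP4, the fatty acid binding protein of adipocytes, lay between 15.55 and 15.93 at week 8 and between 15.67 and 15.99 at week 0. These labels of fat tissue were met on every array, but PLIN1 and LIPE, also of the adipocyte list, varied more. PLIN1 lay between 10.42 and 12.09 at week 8 and between 7.29 and 11.36 at week 0. LIPE lay between 11.80 and 12.41 at week 8 and between 10.25 and 12.20 at week 0. Of the 10 arrays, 4 also carried skeletal muscle transcripts, defined as a mean above 7 over 25 muscle genes. That mean was 11.08 in dog 7 at week 8, with 4.62 to 4.94 in the other 4 dogs. At week 0 it was 11.53 in dog 5, 14.12 in dog 7 and 8.79 in dog 8, with 4.47 in dog 2 and 4.63 in dog 6. Only dogs 2 and 6 had both arrays free of muscle by this measure.

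The week-8 array labelled dog 5 went against its label. Over probe sets that separate the 9 dogs it correlated at 0.962 with the other arrays of control dog 9 and at 0.578 with those of dog 5. Among the control arrays of week 8, the one that bears the label dog 9 correlated at 0.944 with dog 5 and at 0.615 with dog 9. The other 43 arrays matched their own dog best. The count of calls and the genes that passed are therefore given with dog 5 and again without its pair of arrays. "Dog 5 at week 8" below means the array that bears this label.

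In these ad libitum dogs 944 of 22690 tested probe sets (4.16%) passed an adjusted p of 0.05 between week 8 and week 0. Of these, 503 (2.22%) were higher and 441 (1.94%) lower at week 8. They carried 481 distinct gene symbols, 271 higher and 210 lower. Without the pair of dog 5, 149 probe sets (0.657%) passed, 113 higher (0.498%) and 36 lower (0.159%), and 138 of them were among the 944. All 944 kept their sign without dog 5, but that fit shares its arrays with the one that chose them, so this is no independent support. The count depended on the other dogs as well. It was 70 when the arrays of dog 2 were left out, 270 when dog 6 was removed, 619 in the absence of dog 7 and 5341 once dog 8 was omitted. In control dogs 0 of 22690 probe sets passed in limma's test of week 8 against week 0, and 420 had an unadjusted p under 0.05. Because 4 control dogs and 5 ad libitum dogs were compared within their own groups, this contrast of counts does not show a difference. The difference itself, the ad libitum change minus the control change, passed for 0 probe sets, with 1904 at an unadjusted p under 0.05. Dog 8 bore on this count too, since 797 probe sets passed when it was omitted, 101 with a positive and 696 with a negative difference.

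The genes called higher moved by similar amounts in dogs 2, 5, 6 and 7 and by less in dog 8, and for those called lower dogs 7 and 8 both moved less. The median change of the 503 higher probe sets was 1.42 in dog 2, 1.27 in dog 5, 1.24 in dog 6, 1.19 in dog 7 and 0.64 in dog 8. For the 441 lower probe sets the median change lay between -2.13 and -1.95 in dogs 2, 5 and 6 and was -0.89 in dog 7 and -0.02 in dog 8. In dog 8 only 237 of the 441 were lower at week 8 at all, and 222 were lower in 5 of 5 dogs, against 450 of the 503 higher probe sets that were higher in 5 of 5. Dogs 2 and 8 also stood at opposite ends of the actin measure of RNA quality, but not of the same measure for GAPDH. The 3' minus 5' difference of actin, which is large in degraded RNA, averaged 1.74 ± 0.27 at week 8 and 2.85 ± 1.00 at week 0 (SD, n = 5 each). It changed by -2.32 in dog 2, -0.56 in dog 5, -2.06 in dog 6, -1.30 in dog 7 and 0.68 in dog 8 (exact two-sided sign-flip permutation test, p = 0.188, or 0.375 adjusted over 3 such measures, where 0.0625 is the smallest p that 5 dogs allow). With this difference as a covariate 261 probe sets passed, 182 higher and 79 lower, and 260 of them were among the 944. With the muscle list mean as a covariate the count was again 944, of which 773 were shared. Without the 10 arrays of the series that carried muscle it was 1184, of which 264 were higher and 920 lower.

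**Figure D1:**
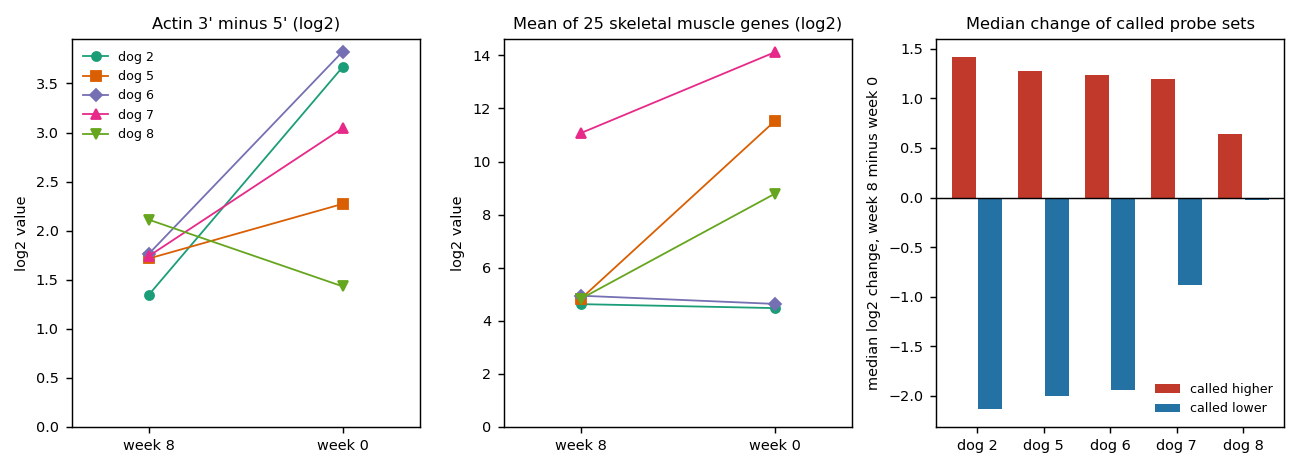
Actin 3' minus 5' difference (left, log2) and mean of 25 skeletal muscle genes (middle, log2) in each ad libitum dog at week 8 and week 0, 1 line per dog, and median log2 change per dog of the 503 probe sets called higher and the 441 called lower (right, bars). Dog 8 has the only rise of the actin difference (0.68) and the smallest median among the lower probe sets (-0.02), and dog 7 has the only week-8 array with muscle transcripts (11.08).

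Secreted proteins of fat were among the genes with the largest rise. LEP, the leptin gene, stood at 12.88, 10.45, 13.36, 12.62 and 12.91 in dogs 2, 5, 6, 7 and 8 at week 8, against 7.72, 8.33, 8.70, 7.81 and 10.48 in the same dogs at week 0. It was higher at week 8 in 5 of 5 dogs. The groups overlapped only through dog 5, the lowest at week 8, and dog 8, the highest at week 0. The fitted change, which takes dog and laboratory batch into account, was 3.45 (SE 0.462, adjusted p = 5.11e-04), or 10.9-fold. Without dog 5 it was 3.78 (adjusted p = 7.48e-04). On the week-8 array labelled control dog 9, LEP stood at 12.57, above the 7.96 to 10.69 of the other 3 control dogs.

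The AZGP1 product, zinc-alpha-2-glycoprotein, is made by fat and promotes fat breakdown in rodents. It stood at 6.72, 2.35, 7.74, 7.57 and 9.21 in dogs 2, 5, 6, 7 and 8 at week 8, against 2.32, 2.32, 2.30, 2.22 and 2.37 at week 0. Dogs 2, 6, 7 and 8 were thus far above a baseline where the probe set was at background in all 5 dogs, and dog 5 stayed there. The fitted change was 4.36 (SE 0.735, adjusted p = 0.00340), and 5.48 without dog 5 (adjusted p = 7.55e-05). In control dogs AZGP1 averaged 2.38 ± 0.06 at week 8 and 2.34 ± 0.01 at week 0 (SD, n = 4 each). The array labelled control dog 9 was also low at week 8, at 2.47. The ad libitum change exceeded the control change by 4.27 (adjusted p = 0.485), and by 5.41 without dog 5, where AZGP1 was the only probe set of 22690 to pass that test (adjusted p = 0.0120). That fit kept the week-8 array labelled control dog 9. With the week-8 arrays labelled dogs 5 and 9 both left out, 0 probe sets passed that test. This AZGP1 probe set was above 4, the level needed to be tested, only in ad libitum dogs after week 0 and in control dogs at week 24. A second AZGP1 probe set changed by 0.67 and did not pass (adjusted p = 0.345).

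The largest fitted change belonged to IGSF1, a membrane glycoprotein of the immunoglobulin superfamily whose loss causes central hypothyroidism in humans. It stood at 9.47, 9.79, 10.60, 9.03 and 10.90 in dogs 2, 5, 6, 7 and 8 at week 8, against 2.89, 3.44, 2.86, 2.80 and 4.92 at week 0. All 5 week-8 values lay above all 5 week-0 values, a separation that 419 of 22690 probe sets (1.85%) showed in this direction. The change was 6.46 (SE 0.817, adjusted p = 4.28e-04), and 6.48 without dog 5 (adjusted p = 0.00331). It passed in all 21 other ways of fitting the data that were tried, including the 10 arrays alone, where it was the only probe set to pass (adjusted p = 0.00472). In control dogs it stood at 7.59 ± 3.23 at week 8 and 5.34 ± 2.31 at week 0 (SD, n = 4 each), with 10.46 on the array labelled dog 9. The ad libitum change exceeded the control change by 4.05 (adjusted p = 0.591).

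The 12 genes with the largest rise were picked among those higher at week 8 in each of dogs 2, 6, 7 and 8. Of these, IGSF1, AZGP1, DNER, NPR3 and CSTA averaged below 4 at week 0, near array background, so their size is given as a log2 difference and not as a fold. LOC489231, a locus with no assigned name, stood at 9.89, 9.49, 11.03, 10.30 and 11.03 in dogs 2, 5, 6, 7 and 8 at week 8, against 4.32, 5.91, 4.50, 5.11 and 8.52 at week 0. The weeks did not overlap, and dog 8 had the highest baseline. It rose by 4.35 (SE 0.592, adjusted p = 5.11e-04; without dog 5, 0.00347). TPRG1, a tumour protein p63 regulated gene, stood at 9.52, 8.29, 8.72, 8.09 and 7.95 at week 8, against 4.08, 5.00, 4.07, 4.05 and 5.09 at week 0. It too did not overlap and rose by 3.73 (SE 0.537, adjusted p = 8.71e-04; without dog 5, 0.00375).

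A further group of the 12 encodes matrix proteins. LOX, the lysyl oxidase that cross-links collagen and elastin, stood at 10.14, 3.79, 8.66, 8.94 and 9.11 in dogs 2, 5, 6, 7 and 8 at week 8, against 4.90, 5.34, 3.77, 4.90 and 4.38 at week 0. It was higher at week 8 in 4 of 5 dogs, and dog 5 went the other way. The fitted change was 3.47 (SE 0.865, adjusted p = 0.0256), and 4.81 without dog 5 (adjusted p = 0.00375). With the actin covariate it was 3.09 and no longer passed (adjusted p = 0.0749). THBS4, the matrix glycoprotein thrombospondin 4, stood at 11.69, 9.16, 12.29, 11.44 and 12.25 at week 8, against 7.92, 8.78, 8.96, 8.04 and 9.12 at week 0. It did not overlap between weeks, and dog 5 was again the lowest at week 8. It rose by 3.00 (SE 0.619, adjusted p = 0.0111; without dog 5, 3.71 and 0.00969).

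NPR3 encodes the clearance receptor that removes natriuretic peptides, which stimulate lipolysis in human and dog fat. Its probe set with the largest change stood at 7.25, 5.39, 6.11, 6.77 and 8.12 in dogs 2, 5, 6, 7 and 8 at week 8, against 2.99, 2.41, 4.82, 3.85 and 5.40 at week 0. Dog 5 at week 8 lay just under dog 8 at week 0, and the other values did not overlap. It rose by 2.79 (SE 0.522, adjusted p = 0.00718; without dog 5, 0.0313). All 4 NPR3 probe sets passed, with changes of 2.12 to 2.79. CSTA, the protease inhibitor cystatin A, stood at 5.80, 3.75, 7.58, 6.65 and 8.33 at week 8, against 3.46, 3.48, 3.53, 3.48 and 4.03 at week 0. Only dog 5 at week 8 fell within the week-0 range. It rose by 2.74 (SE 0.587, adjusted p = 0.0124; without dog 5, 3.45 and 0.0124).

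The remaining 3 genes of the 12 passed with all 5 dogs and not without dog 5. KCNK16, a pore-forming potassium channel subunit, rose by 3.20 (adjusted p = 0.0180; without dog 5, 0.149). SNCG, gamma-synuclein, a protein abundant in human fat, rose by 2.92 at 1 probe set (adjusted p = 0.0121; without dog 5, 0.0789). Its brighter probe set, at a mean of 15.6 over all arrays, changed by 0.22 (adjusted p = 0.273), so the probe sets of SNCG disagreed. DNER, a transmembrane ligand of Notch, stood at 8.25, 3.16, 7.82, 6.18 and 2.97 in dogs 2, 5, 6, 7 and 8 at week 8, against 2.10 to 2.18 at week 0. It was clearly raised in dogs 2, 6 and 7 and near background in dogs 5 and 8 (change 3.09, adjusted p = 0.0340; without dog 5, 0.0620). Dog 5 was higher for 11 of the 12. The sign rule did not require this, but the fit that chose and ranked the genes included dog 5, so this count is not independent of the choice. Of the 12, 12 passed with the muscle covariate, 10 with the actin covariate and 8 without the arrays that carried muscle. Batches 1, 3 and 4 held both weeks, but with 1 or 2 arrays a week and mostly from different dogs: dog 8 at week 8 and dog 7 at week 0 in batch 1, dogs 2 and 5 and dog 5 in batch 3, and dog 7 and dog 8 in batch 4. As a description, the difference within each was positive for all 12 genes, which had been chosen for a rise. LEP differed by 5.10, 3.33 and 2.15 in these batches, IGSF1 by 8.10, 6.18 and 4.10, and AZGP1 by 6.98, 2.21 and 5.20. IGSF1, LEP, AZGP1, LOC489231, TPRG1 and NPR3 passed whichever of the 5 dogs was left out. LOX did not pass without dog 2, 6 or 7, CSTA without dog 2 or 7, and THBS4 without dog 2.

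**Figure D2:**
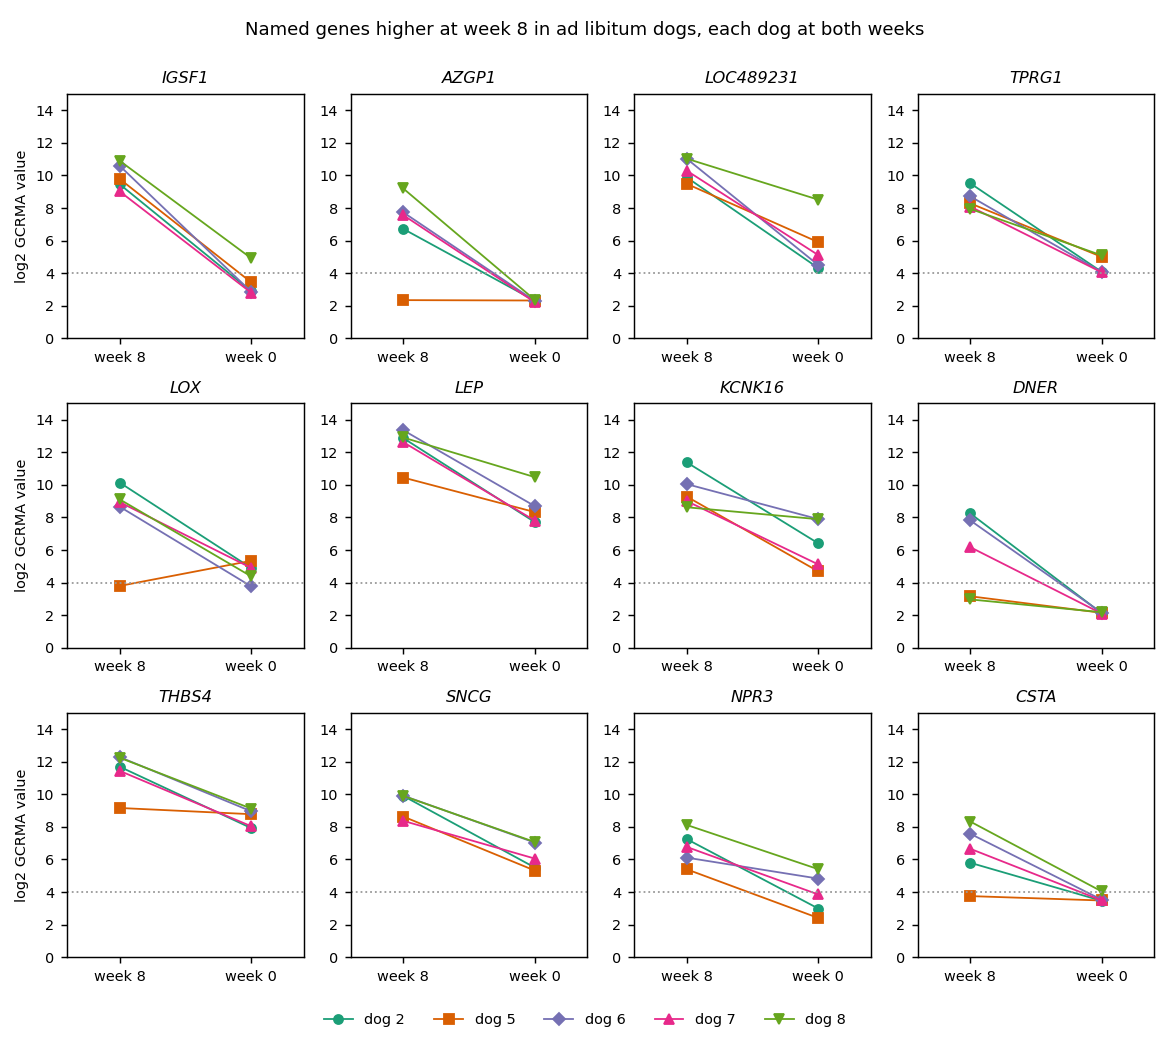
Log2 GCRMA value of the 12 genes with the largest rise, in each of the 5 ad libitum dogs at week 8 (left) and week 0 (right), 1 line per dog, with a dotted line at 4, near array background. Dog 5 stays low at week 8 for AZGP1 (2.35), LOX (3.79) and CSTA (3.75), while IGSF1 lies at 9.03 or above in all 5 dogs.

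The 12 genes with the largest fall were likewise picked among those lower at week 8 in dogs 2, 6, 7 and 8. All were lower in dog 5 too, whose arrays were in the fit that ranked them. Of these, 6 did not overlap between weeks, as 193 of 22690 probe sets (0.851%) did in this direction, and AGMO, RLF, FNDC4 and XDH also passed without dog 5. AGMO, the alkylglycerol monooxygenase that cleaves ether lipids, stood at 5.28, 5.26, 3.28, 3.83 and 4.06 in dogs 2, 5, 6, 7 and 8 at week 8, against 5.79, 6.14, 6.68, 6.91 and 7.11 at week 0. The weeks did not overlap. AGMO fell by 2.60 on the log2 scale (SE 0.642, adjusted p = 0.0248; without dog 5, 0.0456), and all 3 of its probe sets passed. With the actin covariate the change was -2.82 (adjusted p = 0.0347).

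XDH encodes xanthine dehydrogenase, which makes uric acid from purines. It stood at 10.13, 9.93, 6.94, 8.21 and 7.49 in dogs 2, 5, 6, 7 and 8 at week 8, against 10.32, 10.29, 10.24, 10.42 and 10.76 at week 0. The baseline was tight, and dogs 2 and 5 lay just under it while dogs 6, 7 and 8 were far below. XDH fell by 2.15 on the log2 scale (SE 0.542, adjusted p = 0.0271; without dog 5, 0.0371), and all 3 of its probe sets passed. Without the muscle arrays the change was -2.08 (adjusted p = 0.160).

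RLF, a zinc finger protein, stood at 3.52, 4.80, 2.84, 4.54 and 4.30 in dogs 2, 5, 6, 7 and 8 at week 8, against 7.28, 7.13, 6.42, 6.77 and 5.00 at week 0. The weeks did not overlap, and dog 8 moved least. RLF fell by 2.44 on the log2 scale (SE 0.440, adjusted p = 0.00528; without dog 5, 0.0282). Its other probe sets changed by -1.39 (adjusted p = 0.111) and -0.94 (adjusted p = 0.181) and did not pass. FNDC4, a secreted fibronectin type III domain protein, stood at 5.20, 5.16, 5.18, 5.12 and 5.40 at week 8, against 6.00, 5.46, 8.42, 7.37 and 8.58 at week 0. All week-8 values were near 5, and the baseline was spread, with dog 5 lowest. FNDC4 fell by 2.24 on the log2 scale (SE 0.560, adjusted p = 0.0257; without dog 5, 0.0303).

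The other 8 of these genes did not pass without dog 5, with adjusted p-values of 0.0729 to 0.328. FAP, the fibroblast activation protein, stood at 5.44, 6.87, 6.48, 8.25 and 6.86 in dogs 2, 5, 6, 7 and 8 at week 8, against 10.23, 10.60, 9.20, 9.73 and 7.13 at week 0. Dogs 2, 5 and 6 fell most and dog 8 hardly moved (change -2.33, adjusted p = 0.0265; without dog 5, 0.200). The same dogs led in RBBP6, a ubiquitin ligase that binds the retinoblastoma protein (-2.21), in MTF2, a Polycomb-associated protein (-2.29), in USP25, a deubiquitinase (-2.38), and in DMXL2, a regulator of the vesicular proton pump (-2.32). PARP4, a member of the poly(ADP-ribose) polymerase family found in vault particles, changed by -2.17. ANO3, of the anoctamin family, changed by -2.29, and CA15, a carbonic anhydrase, by -2.46. Other probe sets of FAP, RBBP6, USP25, DMXL2 and ANO3 did not pass, and those of RBBP6 changed by -2.60 to 0.19. MTF2 and PARP4 each had another probe set that passed (adjusted p = 0.0419 and 0.0175). Their remaining probe sets did not, with adjusted p-values of 0.0923 to 0.0944 for MTF2 and 0.0696 to 0.580 for PARP4. In these 12 genes the actin covariate left 4 past the threshold, AGMO, RLF, PARP4 and XDH, and 7 had the same sign within all 3 batches that held both weeks. AGMO differed by -2.85, -0.87 and -3.28 within batches 1, 3 and 4, and XDH by -2.93, -0.26 and -2.55. RLF alone of the 12, at the probe set whose values are given, passed whichever dog was left out. AGMO, XDH and FNDC4 did not pass without dog 2, 6 or 7.

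**Figure D3:**
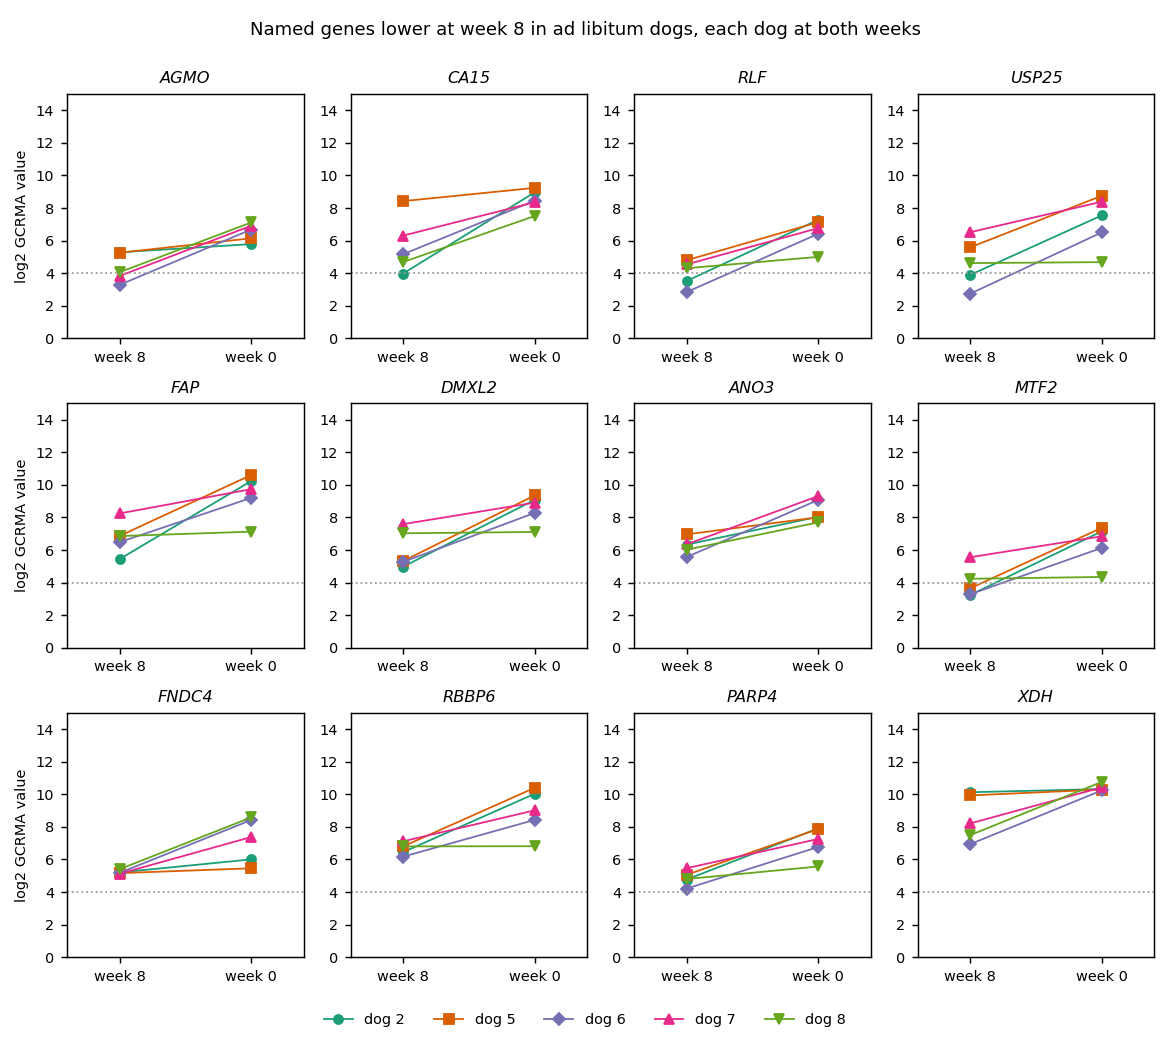
Log2 GCRMA value of the 12 genes with the largest fall, in each of the 5 ad libitum dogs at week 8 (left) and week 0 (right), 1 line per dog, with a dotted line at 4. Dog 8 is nearly flat for FAP, RBBP6, MTF2, USP25 and DMXL2, and falls for AGMO (4.06 at week 8 and 7.11 at week 0) and XDH (7.49 and 10.76).

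Genes were then read by function, each at its brightest probe set, where 204 of 9113 genes (2.24%) were called higher, 166 (1.82%) lower, and the median change over all genes was 0.05. Counts at an unadjusted p under 0.05 below stand beside 5403 of 22690 for all tested probe sets, both directions together. In bulk tissue fewer cells of a type and less RNA per cell cannot be told apart. Among 17 measured genes of fatty acid synthesis 3 rose, 0 fell and the median change was 0.33. With the actin covariate 0 of them passed, and with the muscle covariate 2. PNPLA3, a lipase relative that follows lipogenic signals, stood at 10.01, 9.85, 11.54, 10.84 and 10.62 in dogs 2, 5, 6, 7 and 8 at week 8, against 4.94, 6.80, 6.76, 7.66 and 10.69 at week 0. Dogs 2, 5, 6 and 7 were higher at week 8, and dog 8 was already high at baseline (change 2.70, adjusted p = 0.0253; without dog 5, 0.128). PGD and TKT, enzymes of the pentose phosphate pathway that supplies NADPH, rose by 0.78 (adjusted p = 0.0377) and 0.88 (adjusted p = 0.0479), and neither passed without dog 5.

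The central lipogenic enzymes did not pass. FASN, fatty acid synthase, stood at 14.03, 13.78, 12.16, 12.59 and 11.94 in dogs 2, 5, 6, 7 and 8 at week 8, against 13.31, 13.27, 13.34, 12.96 and 13.83 at week 0. It was higher in dogs 2 and 5 and lower in dogs 6, 7 and 8 (change -0.57, adjusted p = 0.541). SCD, stearoyl-CoA desaturase, changed by 0.21 at its brightest probe set, which sat near the top of the scale at 15.78 to 16.30 (adjusted p = 0.359). Its 2 dimmer probe sets changed by 1.52 and 1.64 (adjusted p = 0.119 and 0.109). The largest fitted change of the list was that of ELOVL6, at 3.95 (adjusted p = 0.0613; without dog 5, 5.00 and 0.0852). It averaged 7.26 at week 8 and 3.34, near array background, at week 0. The lowest was that of ACACA, at -1.09 (adjusted p = 0.106).

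Among 23 genes of triglyceride synthesis and lipid droplets 1 rose and 0 fell, with a median of 0.14. That gene was GK, glycerol kinase, which phosphorylates free glycerol. It stood at 9.10, 8.51, 8.62, 9.08 and 8.48 in dogs 2, 5, 6, 7 and 8 at week 8, against 7.14, 7.24, 7.78, 7.63 and 8.40 at week 0, with no overlap. It rose by 1.03 (adjusted p = 0.0301; without dog 5, 0.182). Other GK probe sets changed by 0.05 (adjusted p = 0.921) and 0.49 (adjusted p = 0.235), so the probe sets of GK disagreed. LPL, the lipase that admits fatty acids from lipoproteins, changed by -0.30 (adjusted p = 0.588), and PCK1, the key enzyme of glyceroneogenesis, by 0.11 (adjusted p = 0.903). Of 9 lipolysis genes NPR3 alone passed. LIPE, hormone-sensitive lipase, changed by 0.89 (adjusted p = 0.269). The adipokine list held LEP and AZGP1 as its 2 risers of 11 genes, and ADIPOQ changed by -0.07 (adjusted p = 0.830).

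Insulin signalling and glucose uptake had 2 genes that fell, 0 that rose and a median of -0.29 over 13 genes. PDK4, the kinase that shuts pyruvate dehydrogenase in fasting, stood at 12.53, 12.53, 12.01, 13.62 and 12.88 in dogs 2, 5, 6, 7 and 8 at week 8, against 14.74, 14.68, 13.66, 14.35 and 12.82 at week 0. It was lower in 4 of 5 dogs, with dog 8 at its week-0 level. PDK4 fell by 1.28 on the log2 scale (adjusted p = 0.0286; without dog 5, 0.242). FOXO1, a transcription factor held inactive by insulin, stood at 10.14, 10.21, 9.93, 10.43 and 10.42 at week 8, against 11.58, 11.40, 10.96, 10.84 and 10.86 at week 0. The weeks did not overlap, and it fell by 0.95 on the log2 scale (adjusted p = 0.0301; without dog 5, 0.175). PDK4 was also the 1 gene of 12 in the glucocorticoid response list to pass. Its other probe set changed by -1.57 and did not pass (adjusted p = 0.194).

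In cholesterol synthesis and uptake 12 of 13 genes had a positive change, the median was 0.51, and 1 passed. The share of positive changes over all genes is not given here, and their median change was 0.05. At an unadjusted p under 0.05 the list had 6 genes higher and 0 lower, and 0 passed the adjusted threshold without dog 5. DHCR7, the last enzyme of cholesterol synthesis, stood at 7.29, 4.88, 6.73, 5.65 and 6.13 in dogs 2, 5, 6, 7 and 8 at week 8, against 4.16, 2.88, 4.14, 2.99 and 5.54 at week 0. Each dog rose, and dog 8 rose least (change 1.96, adjusted p = 0.0155; without dog 5, 0.0871). Among 27 proteasome subunits 23 changes were positive and the median was 0.35, with 14 genes higher and 0 lower at an unadjusted p under 0.05. Only PSMC4, an ATPase of the regulatory particle, passed (0.50, adjusted p = 0.0477, and 0.345 without dog 5). With the actin covariate 0 of the 27 passed. Fatty acid oxidation (16 genes), oxidative phosphorylation (36 genes) and the citric acid cycle (16 genes) had 0 called genes in limma's test and medians of 0.00, 0.06 and -0.12. At an unadjusted p under 0.05 they had 2, 1 and 1 genes higher and 0, 0 and 1 lower. Over all tested probe sets 5403 of 22690 had such a p.

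The basement membrane collagen genes COL4A1 and COL4A2 rose, and LOX, given above, was called higher too. COL4A1 stood at 14.45, 14.21, 14.63, 14.33 and 14.31 in dogs 2, 5, 6, 7 and 8 at week 8, against 13.61, 13.57, 13.71, 12.97 and 13.78 at week 0. The weeks did not overlap, and it rose by 0.78 (SE 0.173, adjusted p = 0.0144; without dog 5, 0.0526). COL4A2, its partner chain, stood at 14.67, 14.55, 14.93, 14.36 and 14.67 at week 8, against 13.95, 13.79, 14.06, 13.30 and 14.03 at week 0. It rose by 0.77, again without overlap (adjusted p = 0.0145; without dog 5, 0.0667). These and LOX were the 3 called of 25 measured matrix genes, with a list median of 0.03. At an unadjusted p under 0.05 that list had 5 genes higher and 4 lower. Of 13 matrix proteases and inhibitors 0 passed in limma's test, with 0 higher and 1 lower at an unadjusted p under 0.05.

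The secreted Wnt antagonists SFRP1 and SFRP5 and the BMP ligand BMP6 rose, while most of their list did not. SFRP1 stood at 11.09, 11.35, 12.00, 11.71 and 12.71 in dogs 2, 5, 6, 7 and 8 at week 8, against 10.22, 10.02, 10.31, 10.53 and 11.48 at week 0. It rose by 1.33 (SE 0.272, adjusted p = 0.0106; without dog 5, 0.0381). SFRP5, known as an adipokine that binds Wnt5a in mice, stood at 6.02, 5.20, 7.50, 4.37 and 6.49 at week 8, against 4.43, 3.26, 5.21, 3.33 and 4.02 at week 0. Both overlapped between weeks but rose in 5 of 5 dogs, and SFRP5 rose by 2.02 (SE 0.416, adjusted p = 0.0111; without dog 5, 0.0347). BMP6 averaged 9.13 ± 1.30 at week 8 and 7.85 ± 0.93 at week 0 (SD, n = 5 each) and rose by 1.59 (adjusted p = 0.0121; without dog 5, 0.0521). They were the 3 called among 20 genes of the BMP, Wnt and growth hormone list, whose median was -0.25. At an unadjusted p under 0.05 that list had 4 genes higher and 5 lower.

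Immune lists held few calls. CXCL14, a chemokine abundant in fat and skin, stood at 14.42, 14.71, 15.22, 14.92 and 15.42 in dogs 2, 5, 6, 7 and 8 at week 8, against 13.19, 13.30, 13.64, 14.08 and 14.35 at week 0. The weeks did not overlap, and CXCL14 rose by 1.23 (SE 0.240, adjusted p = 0.00876; without dog 5, 0.0347). It was 1 of 20 chemokines, cytokines and adhesion molecules. CCL2, the monocyte chemoattractant, changed by 1.39 (adjusted p = 0.330). Of 11 complement genes C7 rose by 1.20 (adjusted p = 0.0447) and C6 fell by 1.59 on the log2 scale (adjusted p = 0.0216). Both encode components of the membrane attack complex, and neither passed without dog 5. The other probe sets of C7 and C6 changed by 0.95 and -1.32 and did not pass (adjusted p = 0.224 and 0.116). The interferon list (13 genes) had 0 calls in limma's test, with 2 genes higher and 3 lower at an unadjusted p under 0.05. The marker lists of macrophages (12 genes) and T and NK cells (9 genes) had 0 calls, with 1 and 0 genes at an unadjusted p under 0.05 and medians of -0.08 and 0.38, and CD68 changed by -0.11 (adjusted p = 0.929).

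The small heat shock protein CRYAB, alpha-B-crystallin, was the 1 gene called of 17 heat shock genes. It stood at 13.13, 11.50, 13.50, 13.02 and 13.26 in dogs 2, 5, 6, 7 and 8 at week 8, against 9.38, 9.64, 10.20, 12.18 and 10.43 at week 0. Dog 7, whose arrays both carried muscle, was highest at week 0, and the gene is also abundant in skeletal muscle. CRYAB rose by 2.72 (SE 0.575, adjusted p = 0.0121; without dog 5, 0.0372), and by 3.21 with the muscle covariate (adjusted p = 4.24e-04). The 25 muscle genes had a median change of -2.33 and 0 calls in limma's test, with 0 at an unadjusted p under 0.05 in either direction. PPARG, the master regulator of adipocytes, changed by -0.31 (adjusted p = 0.583), and 0 of 11 adipocyte transcription factors passed in limma's test, with 1 higher and 1 lower at an unadjusted p under 0.05.

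**Figure D4:**
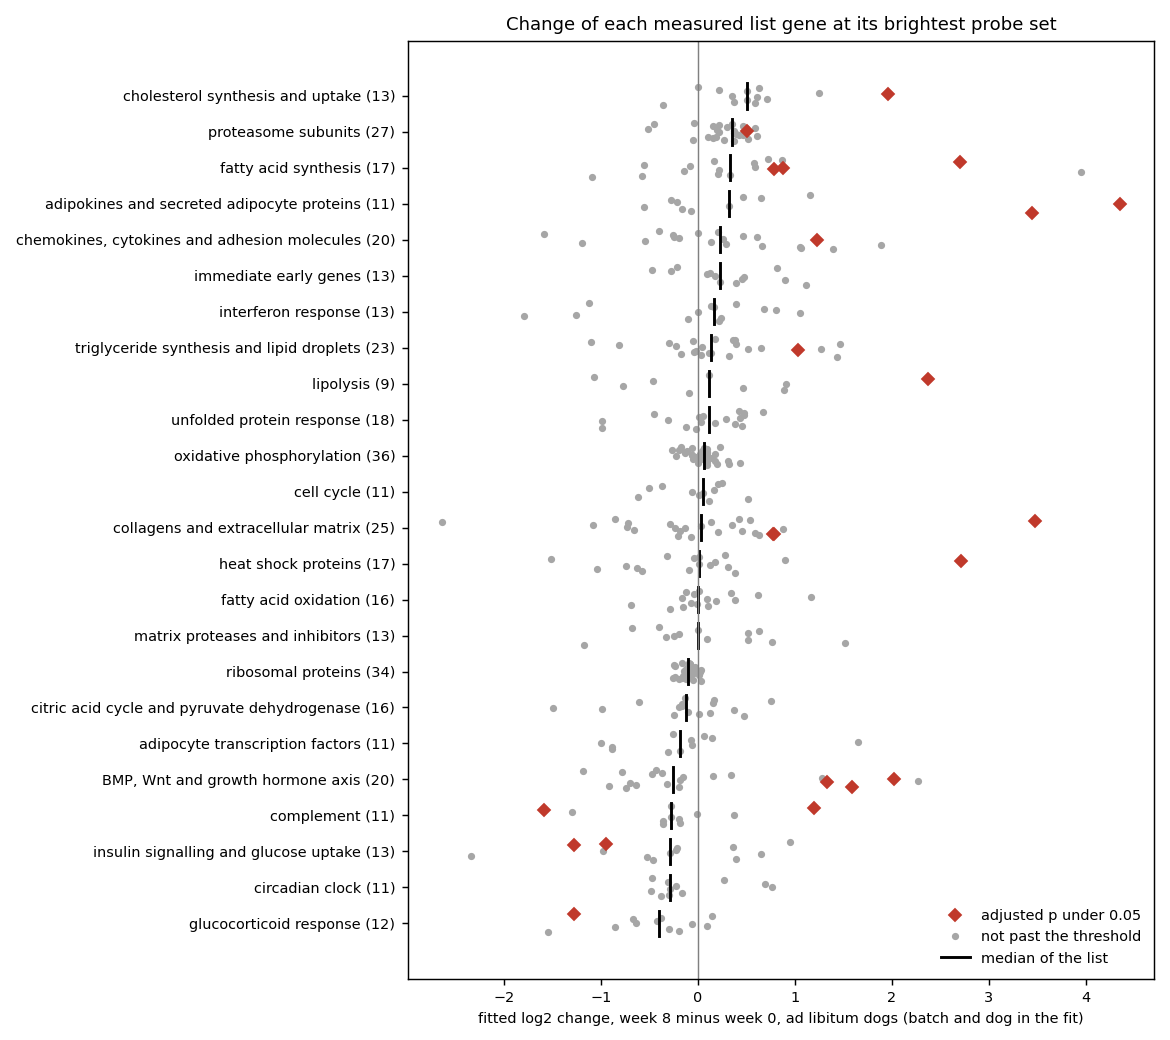
Fitted log2 change, week 8 minus week 0 in ad libitum dogs, of every measured gene of 24 pathway lists at its brightest probe set, with genes past an adjusted p of 0.05 as red diamonds, the others as grey dots and the list median as a black bar; the number of measured genes is in brackets. List medians lie between -0.40 for the glucocorticoid response and 0.51 for cholesterol synthesis and uptake.

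Of the 21 list genes that passed, LEP, AZGP1, NPR3, CXCL14 and SFRP1 did so whichever ad libitum dog was left out. Without dog 2, these 5 were the ones that passed, against 20 of the 21 without dog 8. With the actin covariate 12 of the 21 passed, and PNPLA3, PGD, TKT, GK, PDK4, LOX, C6, C7 and PSMC4 did not. With the muscle covariate TKT and C7 did not pass.

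Other weeks place the change in time, although all share the week-0 arrays. Against week 0, 195 probe sets (0.859%) passed at week 4, 205 (0.903%) at week 12 and 1213 (5.35%) at week 24, where all arrays are of 1 laboratory batch that holds no other week. LEP changed by 3.00, 3.45, 2.64 and 3.57 at weeks 4, 8, 12 and 24, and passed at all of them. AZGP1 changed by 6.02, 4.36, 5.25 and -0.03, and at week 24 it was not past the threshold (adjusted p = 0.987). IGSF1 changed by 4.94, 6.46, 4.29 and 3.95, with its highest value at week 8. NPR3 changed by 1.31, 2.79, 1.68 and 4.22 and passed at weeks 8 and 24. XDH changed by -2.61, -2.15, -2.19 and -2.58, and AGMO by -3.90, -2.60, -3.48 and -3.55, and both passed at every week. RLF changed by -0.64, -2.44, -1.02 and -0.22 and passed at week 8 alone. Of the 12 genes with the largest rise at week 8, 6 also passed at week 4, 7 at week 12 and 9 at week 24. Of the 12 with the largest fall, 2 passed at week 4, 2 at week 12 and 5 at week 24.

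**Figure D5:**
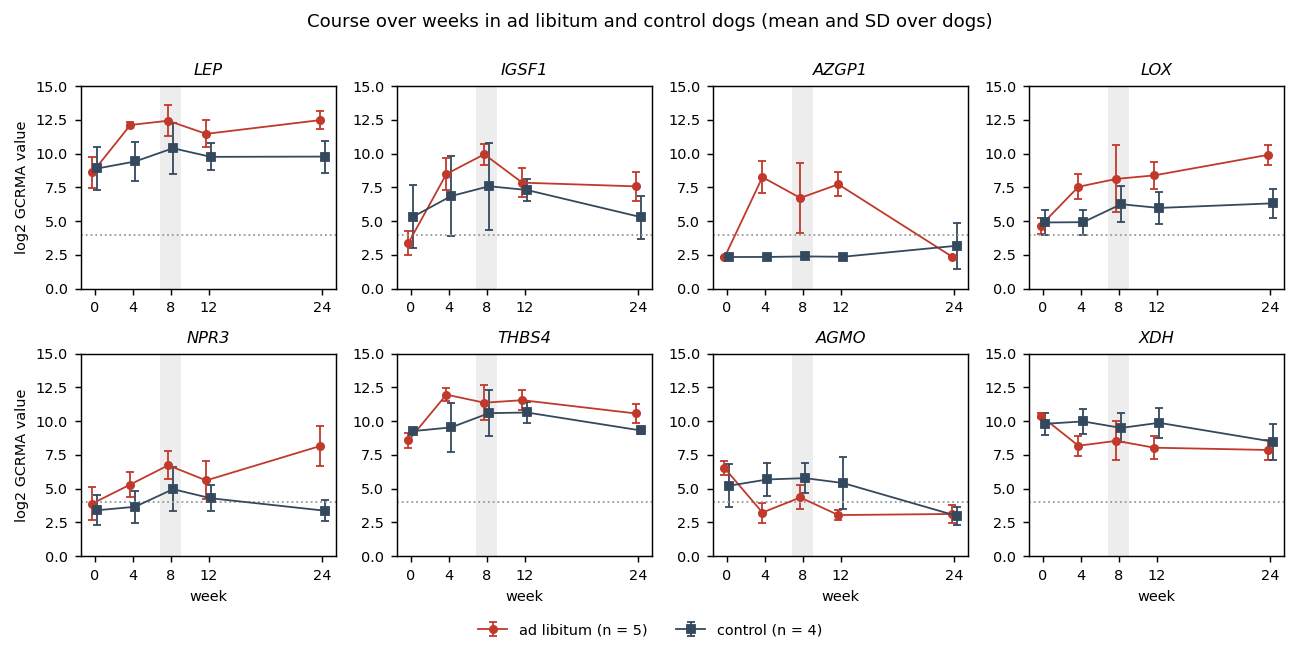
Mean and SD (bars) of log2 GCRMA values of 8 named genes at weeks 0, 4, 8, 12 and 24 in ad libitum dogs (red circles, n = 5) and control dogs (dark squares, n = 4), with week 8 shaded and a dotted line at 4. AZGP1 is raised in ad libitum dogs at weeks 4 to 12, where control dogs stay near 2.3, and LEP changes by 2.64 or more from week 0 at each later week in ad libitum dogs.

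The named rises and falls were chosen for a large change in ad libitum dogs, so a smaller change in control dogs follows in part from the choice. The values are a description. Of the 12 genes with the largest rise, 11 had a positive change in control dogs, and for all 12 the fitted change was larger in ad libitum dogs. Of the 12 with the largest fall, 11 had a negative change in control dogs, and for all 12 it was again larger in ad libitum dogs. LEP stood at 10.40 ± 1.89 at week 8 and 8.90 ± 1.62 at week 0 in control dogs (SD, n = 4 each), a fitted change of 1.41, and the difference from ad libitum dogs was 2.04 (adjusted p = 0.591). For these genes the adjusted p of the difference lay between 0.485 and 0.656. The array labelled control dog 9 entered these values.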

How the data were processed

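RNA of 45 fat biopsies was labelled by the Affymetrix 3' method and hybridised to canine arrays, per the labels' protocols. The authors deposited 1 normalised value per probe set and array, made with GCRMA per the submitters' processing notes, and these were read here as log2 values from their range. No source used here gives the version of GCRMA or the log base. Arrays count no molecules, and precision is limited by the 5 dogs. From 43035 probe sets, 111 array controls were removed. Those above 4 on at least 4 arrays (22690, 52.9%) were tested. DNER was above 4 only on ad libitum arrays after week 0, and AZGP1 only on these and at week 24 in control dogs. Both thus entered the test through arrays where they were high, which their adjusted p does not account for. Gene names came from the platform table, where 16915 tested probe sets had 1 symbol, 271 several and 5504 none.

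In R 4.3.3, limma 3.58.1 with statmod 1.5.0 was fitted to all 45 arrays with the dog as a block, the weeks within each feeding group, and laboratory batches 1 to 5 from the labels, leaving 24 residual degrees of freedom. Batch 6 held week 24 alone and had no term. Batch 2 held week-0 but no week-8 arrays of the ad libitum dogs. Fitted changes therefore differ from the mean of the dogs' own differences, for example 2.70 and 3.20 for PNPLA3, and for ADIPOQ the signs differ (-0.07 and 0.08). P-values of limma's moderated test were adjusted by Benjamini-Hochberg over all tested probe sets, and 0.05 was the threshold. The fit was tested on simulated data. Pairing comes from the animal number in the labels. The deviations of a dog's week-8 and week-0 arrays from their group means correlated at 0.14, -0.48, 0.45, 0.57 and -0.39 in dogs 2, 5, 6, 7 and 8. Identity was checked over 100 probe sets that separate the dogs.

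Named genes are up to 12 of each sign with the largest change past the threshold and the same sign in dogs 2, 6, 7 and 8, up to 3 per gene list with the smallest p, and 10 genes named in any case. The dogs, genes and 34 lists were chosen with earlier results of these data known. The changes per dog of the called probe sets were set beside the actin changes after the calls were seen. Genes in the lists were read at their probe set with the highest mean. Alternatives changed the block, batch, filter, scaling, muscle and actin covariates, and left out dogs or arrays. The 2 fits that combine a left-out dog or array with muscle were added after seeing the data.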

Additional observations from a re-analysis of the deposited data

Results flagged for a closer look

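Of 70 sets of 5 values checked, 6 held a dog far from the other 4. Chance gives this for about 1 in 20 sets. The week-8 array labelled dog 5 accounts for 4 of them. Its LOX value was 3.79, with the nearest other week-8 value at 8.66. Its LEP value was 10.45, with the nearest at 12.62. Its THBS4 value was 9.16, with the nearest at 11.44. Its SCD value was 15.86, with the nearest at 16.27, a smaller gap near the top of the scale. In week-0 samples, CSTA of dog 8 was 4.03, with the nearest at 3.53. The muscle list mean of dog 7 at week 8 was 11.08, with the nearest at 4.94.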

How the results depend on the processing

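The count of 944 probe sets stayed within 1.5 times of its value with the muscle covariate (944), without the muscle arrays (1184), with a filter above 6 (1033), with median centring (1198), with quantile normalisation (1125) and with a robust trend (942). It was 1483 with no replicate block, 1527 with the dog as a random block, 2558 with no batch term, 522 with no filter and 261 with the actin covariate. It was 424 without the week-8 arrays labelled dogs 5 and 9, 564 when the muscle arrays were left out as well, and 199 without dog 5 and with the muscle covariate. With the 10 arrays alone, paired by dog, 1 passed, and with the 8 arrays of dogs 2, 6, 7 and 8, 4 passed. Leaving out 1 dog gave 70 (dog 2), 149 (dog 5), 270 (dog 6), 619 (dog 7) and 5341 (dog 8). For the difference from control dogs, leaving out 1 dog gave 0 to 797 probe sets, the highest without dog 8. It gave 1 without dog 5 (AZGP1), 1 without dog 7 (ARG1), 1 with the muscle covariate (ARG1), 1 with the filter above 6 (ARG1), 1 without dog 5 and with the muscle covariate (AZGP1), and 0 under the other alternatives. The cause of these shifts was not tested. Over the named genes and alternatives, 0 past the threshold changed sign, 294 values lost the threshold and 74 gained it. The alternatives share arrays with the fit that chose these genes, so a kept sign is no independent support. Without dog 5, 9 of the 12 largest rises and 4 of the 12 largest falls passed.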

Other observations

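Probe sets that passed in the fit to all arrays, without dog 5, with the muscle covariate and with the actin covariate numbered 112. Of these 112 probe sets, 90 were higher and 22 lower at week 8. They were chosen by their result, and the genes named here were picked after their values were seen. Besides the genes already described they held ARG1, arginase 1 (2.54, adjusted p = 0.00329), PYCR1, an enzyme of proline synthesis (2.02, adjusted p = 0.00945), PTH1R, the parathyroid hormone receptor (1.99, adjusted p = 0.00329), and APOA1, the main protein of high-density lipoprotein (1.73, adjusted p = 0.0231). Matrix proteins among them were MATN2, matrilin 2, with 2 probe sets (2.49 and 2.04), and SVEP1, an extracellular adhesion protein, with 2 probe sets (1.15 and 1.33). Genes of the secretory pathway among them were KDELR3, a receptor that returns proteins to the endoplasmic reticulum (1.33), PRDX4, a peroxiredoxin of that compartment (0.99), and GPX7, a peroxidase of the same compartment (1.28). The lower ones included ABCA6, a lipid transporter of the ABC family, which changed by -1.77 (adjusted p = 0.00718), and GLCCI1, a glucocorticoid-induced transcript (-1.33, adjusted p = 0.00662).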
